A study of Arabidopsis thaliana with 14 samples.

Results

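Seedlings expressing a form of YODA (YDA) that lacks its N-terminal part, here NdelYDA, were set against the Ler ecotype control across all genes on the array. The comparison used the 4 NdelYDA arrays and the 3 Ler arrays, 7 of the 14 arrays of the series. The members were chosen by their labels and not by any measured value. All seedlings were Arabidopsis thaliana at 7 dpg, and total RNA of seedlings was hybridised. The labels of NdelYDA replicates 1 to 3 name the deletion NB89 and call them biological replicates, and that of replicate 4 gives neither word. For replicates 1 and 4 of NdelYDA the labels also give the Ler ecotype and the absence of stomata. For replicates 2 and 3 they give neither. How the deletion form was expressed and in how many lines is not given in the sources used here. The Ler samples carry a number only, so the spread that p-values rest on may be technical in part. The remaining arrays, 4 of yda seedlings and 3 of the C24 control line CS9159, entered the estimate of the spread and the filter on low signal. The C24 arrays are also quoted as a second control of another ecotype.

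YDA stands at the top of a mitogen-activated protein kinase cascade. That cascade acts on SPEECHLESS, the bHLH factor that starts the divisions which lead to a pair of guard cells around a pore. Removing the N-terminal part of YDA makes the kinase constitutively active and blocks entry into this lineage, and the same kinase also acts in the embryo. Stomata let carbon dioxide in and water vapour out, so a leaf surface without them differs in gas exchange as well as in cell types.

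Intensities of arrays within the NdelYDA group correlated at 0.987 to 0.990 on the log2 scale, those within Ler at 0.987 to 0.989, and those between the groups at 0.938 to 0.942. As a measure of RNA quality, the 3′ to 5′ signal ratio of GAPDH was 1.07 ± 0.101 (SD, n = 4) in NdelYDA and 1.09 ± 0.0346 (n = 3) in Ler. The two-sided exact permutation p was 0.8, and 0.0286 is the smallest that 35 splits allow. The 4 other control pairs gave exact p-values of 0.257 to 0.743. As a check of the ecotype, the 100 probe sets that differed most between Ler and C24 were read in NdelYDA. The NdelYDA mean lay nearer to Ler for 83 of them and nearer to C24 for 17.

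The difference between the groups was broad and mostly moderate in size. Of 17210 probe sets tested with limma, 5503 were called at an adjusted p under 0.05, which is 32.0%. Of these, 2646 (15.4%) were higher in NdelYDA and 2857 (16.6%) lower. Among the called probe sets, 3011 differed by less than 1.5-fold, 1447 by 1.5-fold to 2-fold, 859 by 2-fold to 4-fold and 186 by at least 4-fold. With a fold of at least 2, 6.07% of the probe sets were called, 2.75% higher and 3.32% lower. At least 4-fold, 109 were higher and 77 lower in NdelYDA. All folds are on the scale of log2(intensity + 16), on which changes of dim genes come out too small. Reduced to 1 probe set per named gene, 9387 genes were tested. Of these, 1290 (13.7%) were higher and 1492 (15.9%) lower in NdelYDA, 29.6% in all. With a fold of at least 2 the shares were 2.34% higher and 3.11% lower, and the median log2 change was -0.01. The shares of 13.7% and 15.9% are the background for the lists below.

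Genes were grouped into lists by function, described by how many tested members were called and by the median log2 change. A gene could be in several lists, so counts of different lists are not independent. In 63 lists with at least 5 tested members, 21 had a share called higher of at least 2 times the background, and 16 had such a share called lower. Most of these lists were added after the names, and in part the values, had been seen. Their counts may thus rest partly on how the lists were chosen. Of 1168 distinct tested genes in the lists used, 232 were called higher and 245 lower. Lists of mitosis, microtubules, extensins, wall acetylation, root hairs and auxin response held more falls than rises in NdelYDA. Lists of xyloglucan enzymes, salicylate-inducible defence, glycosyltransferases, anthocyanin synthesis, dehydration response and photosystem assembly held more rises than falls. Some lists written first and later replaced differed. That of salicylate defence had 1 rise and 1 fall among 4 tested genes. That of abscisic acid and water stress had 6 rises and 5 falls among 14. Those of flavonoid genes (5 rises and 0 falls among 7) and glycosyltransferases (15 and 3 among 39) went the same way. Of the genes called higher, 50.2% had all 4 NdelYDA arrays above all 3 C24 arrays as well. Of those called lower, 58.9% had all 4 below the C24 arrays. For the lists described, the number of called members that also lay beyond all C24 arrays in the same direction is given. Genes named by rule had to be called and without overlap between the NdelYDA and the Ler arrays. Their lack of overlap was thus set by the rule, and 41.5% of all tested genes showed it.

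**Figure D1:**
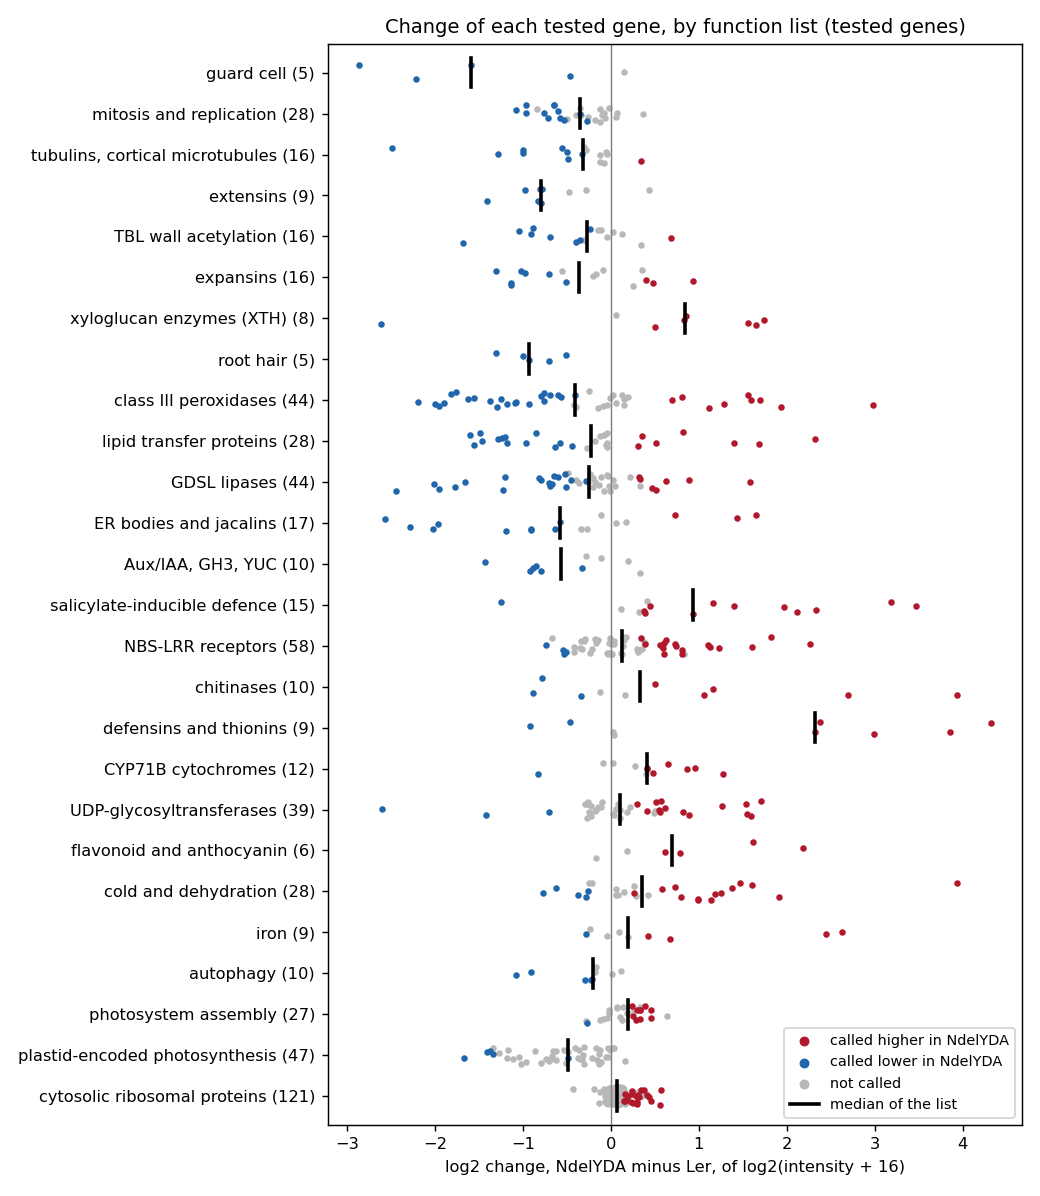
Log2 change in NdelYDA against Ler (x axis) of every tested gene in 26 function lists, 1 dot per gene, with called genes in red (higher) or blue (lower), the others in grey, and a black bar at the list's median. The number of tested genes stands in brackets. The medians of root hair and guard cell lie left of 0, and those of defensins and salicylate-inducible defence right of it. All root hair genes lie left of 0, while the guard cell, defensin and salicylate lists hold genes on both sides.

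**Figure D2:**
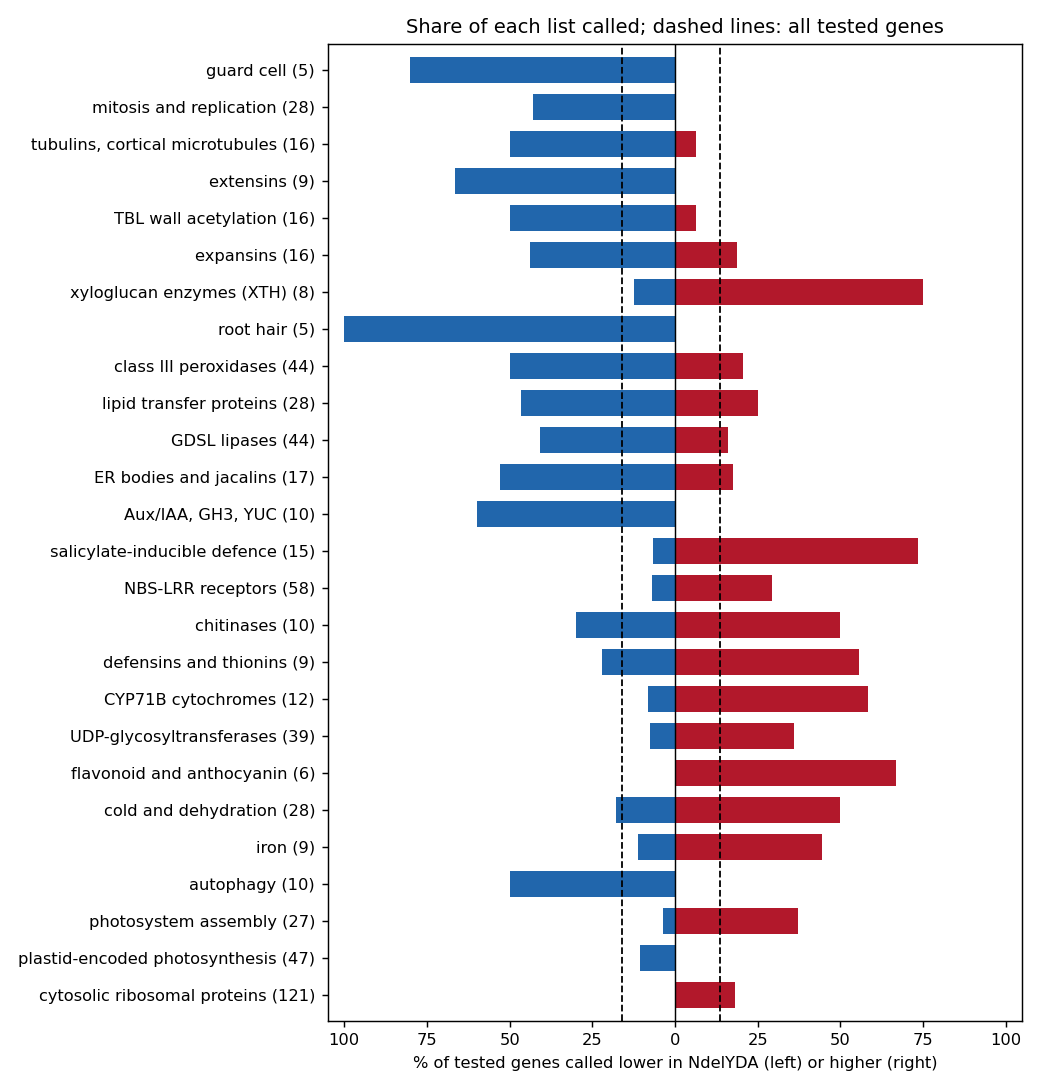
Percentage of the tested genes of each list called lower (bars to the left) or higher (bars to the right) in NdelYDA against Ler. Dashed lines mark the shares over all 9387 tested genes, 15.9% lower and 13.7% higher.

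Most of the few guard cell genes tested, and some of the stomatal lineage, had low transcript levels in NdelYDA. Of 4 tested lineage genes 2 fell, and of 5 tested guard cell genes 4 fell, with a list median of -1.59. The others were not called, with log2 changes of up to 0.06 in the lineage and of 0.15 for the guard cell gene. Of these falls, 1 lineage gene and 3 guard cell genes lay below all C24 arrays. SPCH (AT5G53210), which encodes SPEECHLESS, read 32.2, 25.9, 20 and 50.9 on the NdelYDA arrays, against 103.4, 139.7 and 123.1 on the Ler arrays. FMA (AT3G24140), the bHLH factor FAMA that sets guard cell identity, read 84.7, 71, 98.6 and 86.2 in NdelYDA, against 261.3, 252.6 and 248.6 in Ler. For both genes every NdelYDA array lay below every Ler array. MUTE (AT3G06120), the factor that ends the divisions of the lineage, read 4.4 to 5.0 in NdelYDA and 39.6, 6.3 and 5.4 in Ler, and did not pass the filter on low signal. In a bulk sample, fewer cells of a type and less RNA per cell cannot be told apart.

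The summed intensity of the 5 guard cell genes was 1394.4, 1371.1, 1399.1 and 1242.6 in NdelYDA, against 4178.1, 3864 and 4002.9 in Ler. Locus AT1G22690 gave the largest part of the sum in Ler, with 378.5, 355.5, 379.5 and 273.8 in NdelYDA, against 2682.5, 2516.2 and 2591.2 in Ler. CHX20 (AT3G53720), a cation/proton exchanger of guard cells, read 12.3, 38.3, 15.3 and 5.1 in NdelYDA and 181.8, 84.7 and 145.5 in Ler. AT4G14480, listed as BLUS1, a kinase of blue-light stomatal opening, read 54.7, 58.1, 55.2 and 69.1 in NdelYDA and 234.0, 203.2 and 193.9 in Ler. The groups lay apart for both genes. Locus AT5G06970 fell by 0.46 on the log2 scale (SE 0.07, limma adjusted p = 1.1e-04). With a filter at the array median 3 guard cell genes were tested and 2 called lower, with a median of -0.46, and 2 lineage genes were tested and 1 called lower. CHX20 also read low in C24, at 8.6 ± 3.8 (SD, n = 3).

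Several mitotic genes had lower transcript levels in NdelYDA, while other mitotic genes and several replication proteins of the same list were not called. Of 28 tested genes of mitosis and replication, 12 fell and none rose by limma, with a median of -0.35. At an unadjusted p under 0.05 these counts were 17 lower and 1 higher. The falls were moderate, and 17 of the 28 had no overlap between the NdelYDA and the Ler arrays, a pattern that 41.5% of all tested genes showed. TOPII (AT3G23890), the topoisomerase that untangles replicated chromosomes, read 176.5, 181.3, 163.9 and 123.6 in NdelYDA, against 307.5, 364.0 and 396.3 in Ler. Its log2 change was -1.07 (SE 0.15, limma adjusted p = 3.7e-05). 3xHMG-box2 (AT4G23800), a chromatin protein that binds mitotic chromosomes, read 353.0, 414.4, 370.8 and 348.4 in NdelYDA, against 737.8, 786.2 and 697.6 in Ler (-0.97, limma adjusted p = 0.0012). Members named further were chosen after their values were seen. KINESIN-12B, a motor of the phragmoplast that builds the new cell wall, changed by -0.96. AUR3, an Aurora kinase of the centromere, changed by -0.65, and ASF1B, a histone chaperone, by -0.60. The replication proteins POLD3, PSF2, POLA3, ICU2 and PRL had log2 changes of -0.12 to 0.07. Among the mitotic genes HBT, SAMBA, CDC27a, BUB3.1, BUB3.2, BUBR1 and Haspin were not called either, with log2 changes of -0.84 to -0.02. The remaining uncalled members were ATSMC2 (0.37), TPLATE (-0.08), FBL17 (-0.18) and SIM (-0.50). None of 15 tested genes of DNA repair and recombination was called by limma in either direction, and 1 was lower at an unadjusted p under 0.05. Of the 12 falls, 8 lay below all C24 arrays too. At a filter set to the array median 14 genes were tested and 6 called lower, with a median of -0.22.

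Tubulins and proteins of the cortical microtubules, which guide cellulose synthesis and cell shape, fell in 8 of 16 cases, and 1 rose. The list median was -0.32, and 6 of the 8 falls lay below C24. SP1L2 (AT1G69230), a member of the SPIRAL1 family that binds microtubule ends, read 21.3, 64.1, 39.3 and 23.6 in NdelYDA, against 281.5, 265.0 and 257.4 in Ler. Its log2 change was -2.49 (SE 0.22, limma adjusted p = 2.3e-07). SP1L5, of the same family, read 129.9, 118.1, 73.3 and 94.6 in NdelYDA and 259.4, 261.3 and 294.2 in Ler. The groups lay apart for both genes. Further falls, chosen after their values were seen, were those of SP1L4 (-0.99), TUB1, a beta tubulin (-0.998), TUB7 (-0.48), TON1B, which positions the preprophase band (-0.55), and TUA6 (-0.33). TUA1, an alpha tubulin, rose by 0.35 (limma adjusted p = 0.023), and missed the threshold without NdelYDA replicate 2 (0.0521) or 3 (0.0658) and without Ler replicate 1 (0.0843) or 3 (0.0705). In the median of this list NdelYDA replicate 1 was lower than the other 3 arrays, at -0.47 against -0.25 to -0.26.

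Cell wall genes changed in both directions by family. Extensins are hydroxyproline-rich proteins that cross-link the wall. Of 9 tested loci listed as extensins 6 fell and none rose by limma, with a median of -0.79, and at an unadjusted p under 0.05 there were 7 lower and 0 higher. Of these 9, 4 are read by probe sets with shared sequence, and only HRGP1 carries a name in the gene table used. Of the 6 falls 4 lay below C24. HRGP1 read 1012.1, 1007.3, 1026.0 and 1009.3 in NdelYDA, against 1906.5, 1585.0 and 1865.6 in Ler. Locus AT3G28550 read 286.1, 333.1, 267.8 and 195.6 in NdelYDA, against 1121.7, 338.0 and 1025.9 in Ler, where replicate 2 was near the NdelYDA level. Locus AT2G43150 changed by -0.97 (limma adjusted p = 0.0049).

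TBL proteins add acetyl groups to wall polysaccharides. Of 16 tested TBL genes 8 fell and 1 rose, with a median of -0.27. TBL41 (AT3G14850) read 49.0, 34.1, 31.4 and 46.7 in NdelYDA, against 194.2, 150.4 and 148.7 in Ler. TBL30 read 105.3, 94.3, 118.9 and 114.7 in NdelYDA, against 255.7, 234.2 and 231.9 in Ler. TBL37 went the other way, at 1208.3, 1317.8, 1294.9 and 1322.2 in NdelYDA and 761.5, 794.8 and 830.2 in Ler. The groups were apart for all of these, and 7 of the 8 falls lay below the C24 arrays. The smaller falls were less stable: 5 were called without NdelYDA replicate 3 or 4 and without Ler replicate 1, 2 or 3.

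Expansins loosen the wall during growth. Of 16 tested, 7 fell and 3 rose, with a median of -0.36. EXPB3 (AT4G28250) read 576.2, 466.9, 623.8 and 547.5 in NdelYDA, against 1350.4, 1487.5 and 1328.5 in Ler (log2 change -1.31, SE 0.13, limma adjusted p = 1.1e-06). EXPA16 changed by -1.14, and EXLB1, an expansin-like gene, rose by 0.93. EXPB1 (-1.13), EXPA4 (-1.02) and EXPA15 (-0.97), chosen after their values were seen, fell as well. EXPA16 and EXPA4 overlapped the C24 arrays, EXPA15 lay above them, and 3 of the 7 falls lay below them, as 2 of the 3 rises lay above them. Under a filter at the array median 8 expansins were tested, and 3 were called lower and 3 higher. Among 9 tested GH9 endoglucanases, which cut glucan chains of the wall, 3 fell and 1 rose. GH9C1 changed by -1.04, GH9B8 by -0.54 and GH9C2 by 0.62, and all 3 falls lay below C24. With the filter at the array median 3 endoglucanases were tested, 1 called lower and 1 higher, with a median of 0.19.

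Xyloglucan endotransglucosylases (XTH), which cut and rejoin the chains that tether cellulose, rose in 6 of 8 cases. The list median was 0.85, and 1 gene fell. XTH19 (AT4G30290) read 3553.7, 3349.3, 3730.0 and 3126.3 in NdelYDA, against 1063.8, 1022.3 and 1177.3 in Ler. XTH18, its neighbour in locus number, read 1931.1, 1968.3, 2024.7 and 2119.7 in NdelYDA, against 423.0, 720.0 and 669.7 in Ler. XTH32 changed by 1.56 and XTH33 by 0.84. XTH21 (AT2G18800) fell, to 12.4, 21.6, 7.2 and 37.4 in NdelYDA against 173.1, 192.8 and 209.0 in Ler. XTH18 was within the C24 range, and 2 of the 6 rises, those of XTH19 and XTH32, lay above it.

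The few root hair genes tested, 5 of 30 listed, were lower in NdelYDA, and secreted peroxidases changed in both directions. Locus members of the lists that follow come from background knowledge, and most carry no name in the gene table used. All 5 tested root hair genes fell, with a median of -0.93, and 4 of the 5 lay below the C24 arrays. EXPA7 and EXPA18, expansins of root hair cells, read 72.9 to 94.9 and 138.6 to 170.4 in NdelYDA, against 120.2 to 177.3 and 171.9 to 290.2 in Ler. EXPA18 missed the threshold without Ler replicate 3 (adjusted p = 0.114). Loci AT5G04960 and AT2G47540 changed by -1.31 and -0.99. When the filter was set at the array median, 3 of the 5 were tested, and all 3 were called lower. A marker list of root endodermis and cortex had 2 tested loci. Of these AT1G62500 read 94.2, 82.4, 113.6 and 83.6 in NdelYDA, against 457.6, 337.6 and 375.6 in Ler (-1.89, limma adjusted p = 1e-06), and AT1G09750 was not called. Whether the proportion of root in the samples differed was not tested.

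Class III peroxidases act in the cell wall, where they cross-link or loosen its polymers. Of 44 tested loci 22 fell and 9 rose, with a median of -0.41. The list written first had 3 rises and 2 falls among 6 tested genes, with a median of 0.72. Of the 22 falls, 21 lay below all C24 arrays, and of the 9 rises, 8 lay above them. PRX52 (AT5G05340), an enzyme of lignin formation, read 397.1, 406.2, 444.6 and 480.9 in NdelYDA, against 50.1, 32.2 and 41.1 in Ler. Prx37 (AT4G08770) read 967.8, 985.1, 1008.1 and 900.8 in NdelYDA, against 265.8, 283.9 and 309.6 in Ler. Locus AT5G64120, listed as PRX71, read 2045.9, 2006.6, 1911.8 and 2042.4 in NdelYDA, against 823.6, 759.3 and 858.8 in Ler. These 3 rose, with no overlap between the groups. Among the falls with a mean of at least 100 in the higher group, the largest was that of locus AT4G30170, at 813.4, 806.2, 785.6 and 794.2 in NdelYDA, against 3248.6, 3015.6 and 3461.8 in Ler (-1.996, limma adjusted p = 2.2e-11). Locus AT2G39040 changed by -1.90. PRX72 (AT5G66390) and PRX25 (AT2G41480), chosen after their values were seen, each changed by -0.76.

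Lipid transfer proteins and GDSL lipases, secreted proteins of which several help to build cutin and suberin, showed a similar split. Of 28 tested lipid transfer loci 13 fell and 7 rose, with a median of -0.22. Of 44 tested GDSL loci 18 fell and 7 rose, with a median of -0.25. None of these members has a name in the gene table used, so only loci are given. AT2G48130 read 344.9, 302.9, 289.3 and 330.3 in NdelYDA, against 953.1, 896.0 and 1133.5 in Ler. AT1G33811 read 329.5, 232.6, 251.4 and 259.9 in NdelYDA, against 1614.4, 1395.0 and 1558.8 in Ler. AT4G22610 changed by -1.55 and AT1G74460 by -2.01. In the other direction, AT4G12500 rose by 2.32 and AT1G28600 by 1.58, to 1326.1 to 1485.3 in NdelYDA against 445.7 to 464.7 in Ler. Of the falls, 11 of 13 and 14 of 18 lay below the C24 arrays, and of the rises 4 of 7 and 3 of 7 lay above them. With a filter at the array median 11 GDSL loci were called lower and 7 higher.

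ER bodies are compartments of root and seedling cells of this plant family that store a beta-glucosidase, and jacalin-related lectins act with that enzyme. Of 17 tested genes 9 fell and 3 rose, with a median of -0.58, which was -0.90 with a filter at the array median. NAI1 (AT2G22770), the bHLH factor needed for ER bodies, read 609.8, 590.5, 528.2 and 549.1 in NdelYDA, against 1181.9, 1059.0 and 998.3 in Ler. NAI2, a structural protein of the bodies, read 1341.1, 1389.6, 1319.5 and 1247.6 in NdelYDA, against 2261.2, 2352.4 and 2916.6 in Ler. JAL22, a lectin, read 2703.0 to 2928.3 in NdelYDA, against 6240.7 to 6580.2 in Ler. These 3, chosen after their values were seen, lay below the Ler and the C24 arrays, as 8 of the 9 falls did. JAL33 changed by -0.63 and JAL34 by -0.58. The largest falls were those of the loci AT1G52060 (244.1, 276.6, 226.7 and 264.8 in NdelYDA, against 1469.0, 1563.0 and 1685.9 in Ler) and AT1G52070 (-2.28). Locus AT1G33790 rose by 1.65, and BGLU19, a beta-glucosidase, by 1.44.

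Several genes that respond to auxin or make and inactivate it fell in NdelYDA. Of 43 listed genes 10 were tested, and none of 61 listed SAUR genes, which respond fast to auxin, had a named probe set of its own. Of 10 tested 6 fell and none rose by limma, with a median of -0.56, and at an unadjusted p under 0.05 there were 7 lower and 0 higher. IAA29 (AT4G32280), an Aux/IAA repressor that auxin induces, read 100.7, 125.3, 124.4 and 100.9 in NdelYDA, against 342.3, 355.6 and 291.3 in Ler. GH3.17, which conjugates auxin to glutamate, read 466.7, 489.5, 400.1 and 478.9 in NdelYDA, against 872.0, 878.5 and 884.0 in Ler. Both groups lay apart, and NdelYDA lay below C24 too. WES1 (GH3.5) read 423.1 to 444.3 in NdelYDA, against 737.2 to 780.1 in Ler. GH3.3 read 254.2 to 324.1 in NdelYDA and 514.6 to 607.3 in Ler, and its NdelYDA arrays overlapped those of C24. Of the 6 falls 3 lay below C24. HAT2, an auxin-induced homeobox factor, changed by -0.33 (limma adjusted p = 0.015, and 0.0558 without Ler replicate 1). YUC6, an enzyme of auxin synthesis, changed by -0.89 and missed the threshold without any 1 of the 7 arrays (adjusted p of 0.0625 to 0.137).

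**Figure D3:**
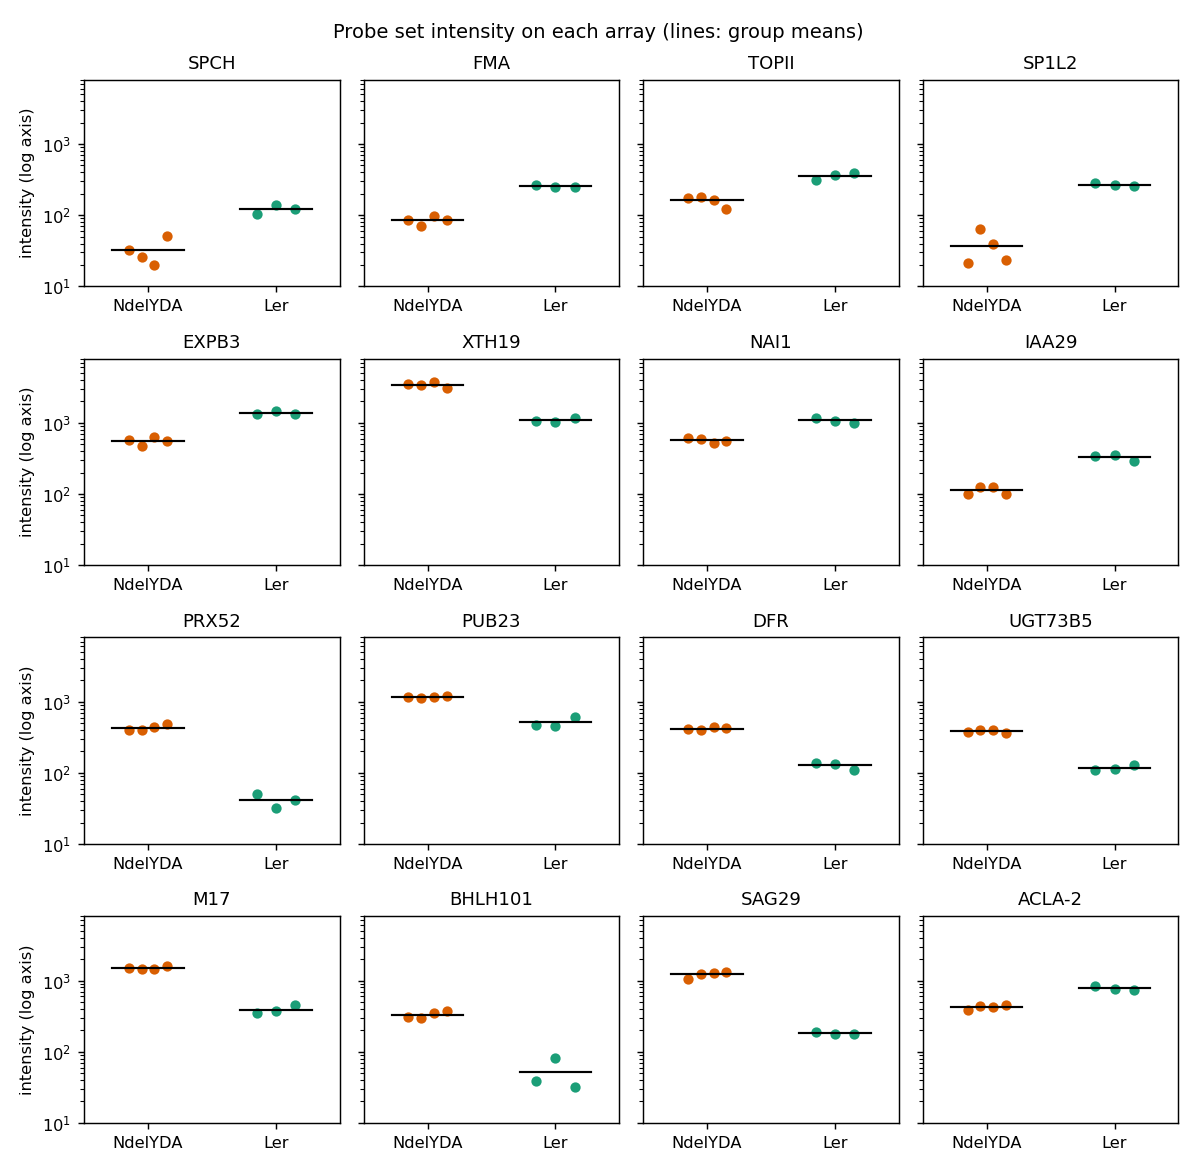
Probe set intensity (log axis) of 16 genes on the 4 NdelYDA and the 3 Ler arrays, 1 point per array, with lines at the group means. In each panel every NdelYDA array lies on the same side of every Ler array, such as 100.7 to 125.3 in NdelYDA against 291.3 to 355.6 in Ler for IAA29. The naming rule required this of the genes it chose, and 41.5% of all tested genes showed it.

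Genes induced by salicylate and by immune signals were higher in NdelYDA than in Ler. Of 15 tested members 11 rose and 1 fell, with a median of 0.93, which was 0.57 with pseudocount 64. PUB23 (AT2G35930), a ubiquitin ligase that dampens immune signalling, read 1152.9, 1139.5, 1164.9 and 1211.1 in NdelYDA, against 473.9, 460.8 and 618.6 in Ler. The largest rises were those of locus AT5G52760 (3.47) and locus AT3G48640 (3.19), which the gene table used does not name. AT5G52760 read 208.5, 227.0, 245.7 and 262.0 in NdelYDA, against 3.4, 11.9 and 5.4 in Ler. Of the 11 rises, 2 lay above all C24 arrays and 9 did not. PUB23 averaged 1167 ± 31.1 (SD, n = 4) in NdelYDA and 1793 ± 318 (SD, n = 3) in C24. WRKY53, a factor of defence and senescence, was 1 of the 2 above C24. Of 8 tested PUB ubiquitin ligases 4 rose and 1 fell, and none of the 4 rises lay above C24. PUB25 changed by 0.73 and PUB19 by -0.51.

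Intracellular immune receptors of the NBS-LRR class detect pathogen effectors. Of 58 tested loci listed in this class 17 rose and 4 fell, with a median of 0.12, and 3 of the 58 carry a name in the gene table used. LOV1 (AT1G10920), a receptor that confers sensitivity to the toxin victorin, read 269.3, 227.8, 251.8 and 234.3 in NdelYDA, against 144.5, 213.4 and 135.3 in Ler. The largest rises stood at loci with neighbouring numbers, whose place in this class was not checked against a source. AT1G72900 read 1219.6, 1103.1, 1255.0 and 1236.6 in NdelYDA, against 197.7, 211.9 and 316.9 in Ler. AT1G72920 rose by 1.82 and AT1G72940 by 1.60. All 3 were higher still in C24, at means of 2090 ± 365, 1625 ± 260 and 1557 ± 259 (SD, n = 3 each). Of the 17 rises 6 lay above C24, and of the 4 falls 2 lay below it. Locus AT5G45210 fell by 0.74 (adjusted p = 0.024), and missed the threshold without NdelYDA replicate 1 (0.0749) and without Ler replicate 1 (0.129) or 2 (0.0612). Under a filter at the array median 9 of the listed loci were called higher and 1 lower.

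Several small antimicrobial peptides were far higher in NdelYDA. Of 9 tested defensins and related cysteine-rich peptides 5 rose and 2 fell, with a median of 2.32. All 5 rises were at least 2-fold and lay above the C24 arrays, and both falls were under 2-fold and lay below them. The wider list written first, whose pattern also took genes of methionine metabolism, had 8 rises and 6 falls among 23 tested genes, with a median of 0.03. PDF1.2 (AT5G44420), the defensin used as a marker of jasmonate and ethylene defence, read 394.9, 328.3, 321.6 and 315.4 in NdelYDA, against 21.7, 19.3 and 51.6 in Ler. PDF2.1 read 1133.1, 1165.9, 1105.1 and 934.5 in NdelYDA, against 186.0, 193.8 and 207.8 in Ler. LCR67 read 374.0, 337.7, 265.1 and 294.1 in NdelYDA, against 38.2, 54.1 and 60.5 in Ler. For these 3 the groups were far apart. LCR68 went the other way, at 2617.0, 2685.2, 2591.8 and 2529.8 in NdelYDA and 4617.2, 4834.9 and 5467.4 in Ler. LCR69 read 6484.2 to 6820.3 in NdelYDA and 6368.1 to 6628.6 in Ler and was not called. These peptides fell outside the naming rule and were chosen after their values were seen.

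Of 10 tested chitinases, which attack fungal walls, 5 rose and 3 fell. ChiC (AT4G19810), a class V chitinase, read 822.2, 765.9, 756.7 and 787.3 in NdelYDA, against 366.6, 393.6 and 341.5 in Ler. CHI (AT2G43570), a putative chitinase, changed by 1.16. The largest rises were at the loci AT2G43620 (3.94) and AT2G43590 (2.70), and locus AT1G02360 changed by -0.89. AT2G43590 and ChiC lay below all C24 arrays, and 2 of the 5 rises lay above C24. Of 14 tested beta-glucosidases, which release defence compounds and hormones from sugar conjugates, 6 rose and 3 fell. BGLU28 (AT2G44460) read 426.3, 467.2, 626.3 and 529.3 in NdelYDA, against 190.0, 201.8 and 190.5 in Ler. BGLU44 changed by 1.22 and BGLU25 by -0.68, and 4 of the 6 rises lay above C24.

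Of 13 tested calmodulin-like calcium sensors 5 rose and 4 fell, with 1 rise above and 1 fall below C24. CML41 (AT3G50770), which acts at plasmodesmata in immunity, read 312.3, 318.7, 370.6 and 319.5 in NdelYDA, against 99.2, 67.4 and 102.8 in Ler. Locus AT3G01830 changed by 1.82 and CML43 by -0.56. Among 10 tested genes induced by jasmonate or wounding 4 rose and 1 fell, and none of the 4 rises lay above C24. JRG21, an enzyme that inactivates jasmonate, read 69.4 to 113.1 in NdelYDA and 18.6 to 31.1 in Ler. Loci AT1G52000 and AT4G24350 changed by 1.12 and 0.80. THI2.2, a thionin, fell by 0.46, and its C24 mean was 8671. When the filter was set at the array median, 3 calmodulin-like genes were called higher and 3 lower, with a median of -0.01.

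Several genes of flavonoid and anthocyanin synthesis rose in NdelYDA, where 6 of 30 listed genes were tested. Of 6 tested flavonoid genes 4 rose and none fell by limma, with a median of 0.70, and at an unadjusted p under 0.05 there were 5 higher and 0 lower. Of the 4 rises 2 lay above C24. DFR (AT5G42800), the reductase at the branch to anthocyanins, read 418.7, 397.5, 439.7 and 422.1 in NdelYDA, against 137.4, 134.8 and 108.8 in Ler. CHIL, a protein that enhances chalcone synthesis, read 433.8, 325.6, 404.1 and 360.1 in NdelYDA, against 199.8, 207.3 and 233.6 in Ler. Both were apart from Ler, and DFR also lay above C24, where CHIL was higher at 817 on average. UF3GT, an anthocyanin glycosyltransferase, changed by 0.61 and missed the threshold without Ler replicate 1 (adjusted p = 0.0733) or 3 (0.0686). At a filter set to the array median 2 were called higher.

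Glycosyltransferases and CYP71B oxidases held more rises than falls, and glutathione transferases more falls than rises. Of 39 tested UDP-glycosyltransferases, which attach sugars to hormones, phenolics and foreign compounds, 14 rose and 3 fell, with a median of 0.10. UGT73B5 (AT2G15480), which takes part in the response to hydrogen peroxide and pathogens, read 372.5, 405.8, 401.4 and 366.9 in NdelYDA, against 111.2, 112.7 and 128.8 in Ler. UGT87A2 read 1122.7, 1065.0, 1016.8 and 1155.9 in NdelYDA, against 461.8, 434.1 and 432.8 in Ler. UGT76E12 changed by 1.70 and UGT76E2 by 1.54. Of the 14 rises 8 lay above C24. UGT72E3 (AT5G26310), which glucosylates lignin precursors, fell to 12.3, 6.4, 9.6 and 4.6 in NdelYDA, against 110.9, 110.1 and 175.9 in Ler. UGT71C1 changed by -1.41. Of 12 tested CYP71B cytochromes, oxidases of plant metabolites, 7 rose and 1 fell, with a median of 0.41, and 3 of the 7 rises lay above C24. CYP71B6 read 1541.9 to 1729.5 in NdelYDA, against 870.5 to 897.8 in Ler. CYP71B22 changed by 0.95 and CYP71B37 by -0.82. Of 12 tested glutathione transferases, which conjugate reactive compounds, 2 rose and 5 fell, with a median of -0.18, and 4 of the 5 falls lay below C24. With a filter at the array median 9 glycosyltransferases and 4 CYP71B genes were called higher, and 2 glycosyltransferases lower.

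Genes of cold and dehydration response, many of which encode LEA proteins that protect drying cells, rose in 14 of 28 cases and fell in 5. The list median was 0.35. M17 (AT2G41260), a late embryo protein, read 1524.4, 1439.6, 1448.3 and 1600.1 in NdelYDA, against 348.2, 378.8 and 446.4 in Ler. Its neighbour M10 (AT2G41280) rose by 3.93. LEA4-5 read 220.1, 184.1, 204.0 and 259.5 in NdelYDA, against 106.5, 66.5 and 74.7 in Ler. STZ (ZAT10), a zinc finger repressor of salt and drought response, read 3472.9, 3770.3, 3432.1 and 3455.8 in NdelYDA, against 1151.6, 1137.5 and 1536.2 in Ler. COR47, a dehydrin induced by cold, was lower, at 4357.1, 4576.1, 4614.8 and 5023.7 in NdelYDA and 7211.1, 7188.1 and 7070.3 in Ler. AT2G46140, listed as LEA27, changed by -0.77. Of the 14 rises 3, among them M10 and M17, lay above C24, and all 5 falls lay below it.

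Of 9 tested genes of the iron response, 4 rose and 1 fell, with a median of 0.20, and 3 of the 4 rises lay above C24. BHLH101 (AT5G04150), a factor induced by iron shortage, read 305.8, 299.1, 353.4 and 370.3 in NdelYDA, against 38.9, 82.7 and 32.0 in Ler. Locus AT1G47400 read 2212.2, 2043.2, 2285.1 and 2280.9 in NdelYDA, against 322.3, 336.6 and 374.5 in Ler. Both lay far above Ler and above C24. PYE, a bHLH factor of the same network, changed by 0.43 and bHLH34 by 0.68. The related factor bHLH115 changed by -0.28 (adjusted p = 0.019), and missed the threshold without NdelYDA replicate 1 (0.0518) or 4 (0.0547) and without Ler replicate 1 (0.0537) or 3 (0.0588). Of 19 tested loci listed as hypoxia-inducible 5 rose and 3 fell, with a median of 0.07, and 1 of the 5 rises lay above C24. CML38 changed by 1.57, locus AT1G19530 by 1.35 and locus AT5G66985 by -1.75. With a filter at the array median 2 loci were called higher and 2 lower.

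Sugar carriers changed in both directions, with 5 of 20 higher and 5 lower, of which 3 lay above and 2 below C24. SAG29 (SWEET15, AT5G13170), a sucrose exporter linked to senescence, read 1066.3, 1248.2, 1277.9 and 1319.7 in NdelYDA, against 191.8, 175.4 and 175.7 in Ler. SWEET16, a carrier of the vacuole membrane, read 198.9 to 232.7 in NdelYDA, against 407.9 to 501.1 in Ler, and SFP2 changed by 0.60. TMT1, which loads sugar into the vacuole, changed by -0.85 and TMT2 by 0.46. SAG29 and SWEET16 lay outside the C24 range. Of 5 tested genes of starch metabolism 2 rose, APL3 by 0.57 and SBE2.2 by 0.30, of which APL3 lay above C24, and 1 rose when the filter was set at the array median. All 4 tested subunit genes of ATP-citrate lyase, which makes cytosolic acetyl-CoA for waxes and other lipids, fell in NdelYDA. ACLA-2 (AT1G60810) read 382.8, 432.2, 423.9 and 452.1 in NdelYDA, against 841.7, 749.3 and 736.4 in Ler. ACLA-1 changed by -0.41, ACLA-3 by -0.35 and ACLB-1 by -0.34, and 3 of the 4 lay below C24. This list of 4 was written after the values were seen.

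Of 10 tested autophagy genes 5 fell and none rose by limma, with a median of -0.20, and at an unadjusted p under 0.05 there were 7 lower and 0 higher. ATG8H (AT3G06420) and APG8A (AT4G21980) encode ATG8 proteins, which coat the forming autophagosome. ATG8H read 419.0, 410.1, 386.3 and 436.4 in NdelYDA, against 940.2, 798.0 and 925.4 in Ler. APG8A read 724.8, 910.5, 976.4 and 988.6 in NdelYDA, against 1629.9, 1580.4 and 1863.2 in Ler. Of the 5 falls 2 lay below C24. The 3 smaller falls (ATG8D, APG8H and ATG8C, -0.21 to -0.29) were fragile, since 2 or 3 genes were called in all without any 1 array other than Ler replicate 2. Vacuolar processing enzymes are proteases of the vacuole that act in senescence and cell death. Of 4 tested 3 rose, with 1 of these above C24. The other changed by -0.48 and was not called, but was lower at an unadjusted p under 0.05. With pseudocount 64 it was called lower. BETA-VPE read 801.8 to 873.8 in NdelYDA, against 395.0 to 425.9 in Ler, DELTA-VPE changed by 0.87 and GAMMA-VPE by 0.24. BETA-VPE and DELTA-VPE were chosen after their values were seen. Of 20 tested serine carboxypeptidase-like genes 6 fell and 2 rose, with 3 of the falls below C24. Among these scpl48 changed by -0.90, scpl31 by -0.85 and scpl35 by 0.83. Of 26 tested subtilases 7 fell and 3 rose, with 3 of the falls below C24. Locus AT2G39850 changed by -1.82 and SBTI1.1 by -1.46. Locus AT4G30020 rose by 0.48 and missed the threshold without NdelYDA replicate 4 (adjusted p = 0.0518) and without Ler replicate 1 (0.0587) or 3 (0.111).

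The nuclear genes tested for subunits of the photosynthetic machinery changed little, while factors that assemble or protect the photosystems rose slightly. Only 15 of 73 listed nuclear photosynthesis genes were tested. Of these 15, 2 rose and 3 fell, with a median of -0.04, shares near the background. LHCB4.2, an antenna protein, read 4344.4 to 5112.4 in NdelYDA, against 6108.9 to 6465.3 in Ler. Of 27 tested assembly and regulation factors 10 rose and 1 fell, with a median of 0.20. HCF101 (AT3G24430), which builds the iron-sulphur clusters of photosystem I, read 2116.7, 2359.0, 2040.2 and 2138.6 in NdelYDA, against 1619.9, 1705.5 and 1393.3 in Ler. CcdA, needed to assemble cytochrome f, changed by 0.45, NTRC, a chloroplast thioredoxin reductase, by 0.34 and CaS, the calcium sensing protein of the thylakoid, by 0.38. TAPX, an ascorbate peroxidase of the thylakoid, changed by -0.27. The rises were below 1.5-fold, and 7 of the 10 lay above C24.

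Transcripts encoded in the plastid genome were lower on average in NdelYDA but varied widely between arrays. Of 47 tested plastid-encoded photosynthesis genes 5 fell and none rose by limma, a share lower of 10.6%, below the background, while the median was -0.48. At an unadjusted p under 0.05 there were 10 lower and 0 higher, and 1 of the 5 falls lay below C24. The median difference from the Ler mean was -0.46, -0.96, -0.25 and -0.14 on NdelYDA arrays 1 to 4, and -0.14, 0.05 and 0.09 on Ler arrays 1 to 3. NdelYDA replicate 4 and Ler replicate 1 were thus at the same level. Of 22 tested plastid genes of gene expression 6 fell, 4 of them to below C24, with array medians of -0.37, -0.82, -0.30 and -0.22 in NdelYDA and -0.13, 0.07 and 0.04 in Ler. The gene ycf3, for an assembly factor of photosystem I, read 99.0, 92.4, 200.7 and 228.6 in NdelYDA, against 477.4, 467.9 and 545.7 in Ler. The gene psbB, for a core antenna of photosystem II, read 1201.1, 695.6, 918.9 and 1351.5 in NdelYDA, against 2102.2, 3355.9 and 2787.7 in Ler. In both the groups lay apart, whereas psaA read 926.5, 282.0, 1663.1 and 2678.9 in NdelYDA, against 1472.9, 3663.2 and 3564.0 in Ler, and was not called. The counts rest on single arrays: 3, 2, 1 and 2 photosynthesis genes fell without NdelYDA replicate 1, NdelYDA replicate 2, Ler replicate 2 and Ler replicate 3, and psbB missed the threshold without Ler replicate 2 (adjusted p = 0.0509). For the genes of plastid gene expression 2 fell without Ler replicate 3.

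**Figure D4:**
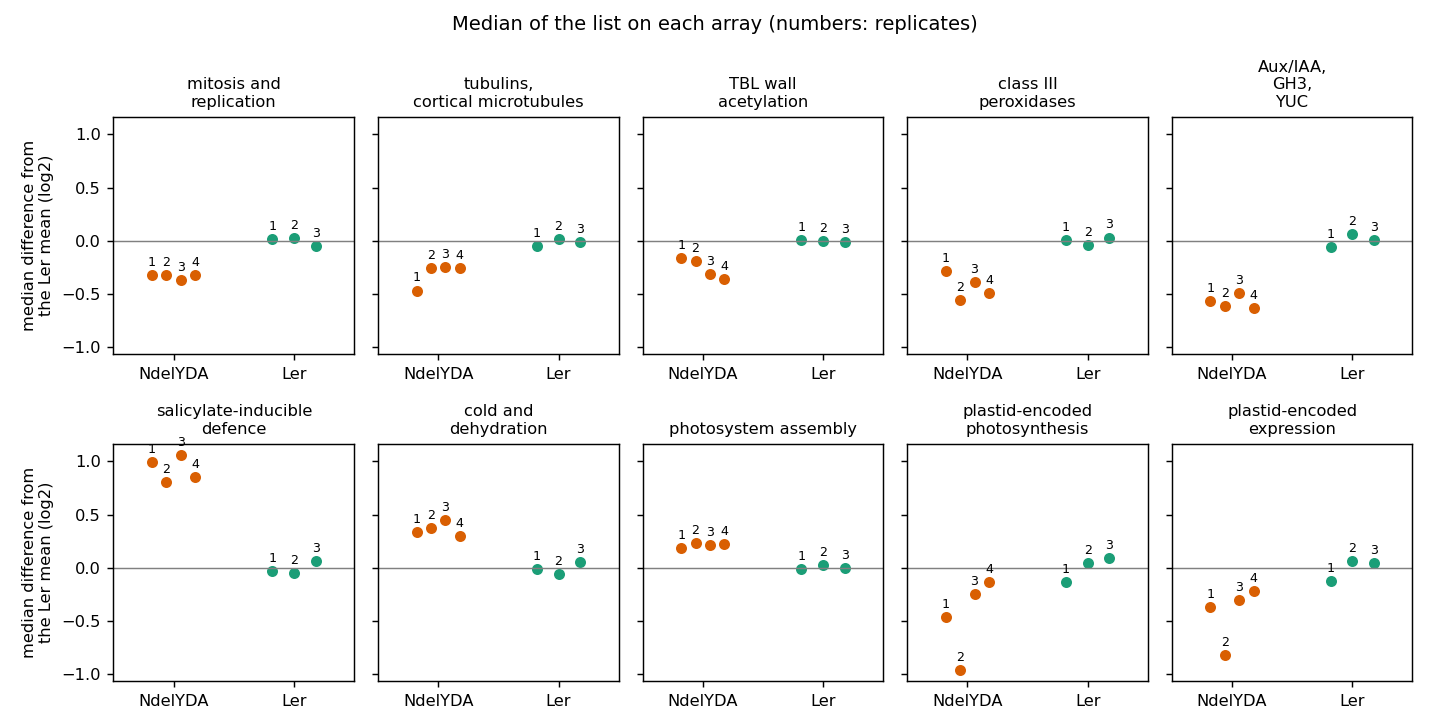
Median over the tested genes of a list of the log2 difference from the Ler mean (y axis), on each NdelYDA and Ler array, numbered by replicate, for 10 lists. For plastid-encoded photosynthesis NdelYDA replicate 4 and Ler replicate 1 both stand at -0.14, while for mitosis and replication the NdelYDA arrays stand at -0.32 to -0.36 and the Ler arrays at -0.05 to 0.03.

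Cytosolic ribosomal protein genes rose in 22 of 121 tested cases and none fell by limma. The share higher, 18.2%, was not far from the 13.7% of all tested genes, while 15.9% of all tested genes fell. At an unadjusted p under 0.05 there were 29 higher and 2 lower. Their median log2 change of 0.07 was small, and it was 0.07 to 0.09 on all NdelYDA arrays. Locus AT4G10450 read 2062.8, 2198.5, 1986.6 and 1858.5 in NdelYDA, against 1335.6, 1530.1 and 1557.9 in Ler, and locus AT2G32220 changed by 0.57. The count was 14 without NdelYDA replicate 2 and 13 without Ler replicate 2. Of the 22 rises 10 lay above C24. Other lists of central functions are given by their counts. Of 38 tested genes of RNA polymerases and splicing 2 rose and 2 fell. Of 11 tested ESCRT genes, which sort membrane proteins for degradation, none was called by limma, and 2 were higher at an unadjusted p under 0.05. Of 14 tested genes of the tricarboxylic acid cycle 4 fell and 1 rose, of 19 of ER protein folding 2 fell and 4 rose, and of 8 cellulose synthases 1 fell and 1 rose.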

How the data were processed

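The members and the gene lists of this comparison were chosen with earlier results of these data known. The deposited values are linear probe set intensities, and the trimmed means of the arrays are nearly equal, as after a global scaling. The software behind them is not given in the sources used here. The file held 22810 probe sets. The 64 control probe sets were left out, 13513 had 1 gene in the probe table and 8730 were unnamed there, and names came from the TAIR10.1 gene table. A probe set was kept (17210) if it exceeded the 30th percentile of an array in 3 or more of the 14. One model with 4 group means over all 14 arrays was fitted to log2(intensity + 16) with limma 3.58.1 in R 4.3.3 (moderated variances with an intensity trend), and NdelYDA minus Ler was tested two-sided with Benjamini-Hochberg adjustment, with a call at an adjusted p under 0.05. A gene took its tested single-gene probe set with the highest mean. In simulated data with 200 changed among 17210 probe sets, the test found 87% of the 2-fold and 55% of the 1.5-fold changes, and 5.96% of its calls were false. The simulated noise was independent between probe sets. In the data 5503 probe sets were called, so these rates may not carry over.

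The 71 lists written first were joined by 67 added after the names, and in part the values, had been seen. Wrongly matched symbols were then removed. List members come from symbols or from memory of published loci. Named genes were those called, apart between the groups and with a mean of at least 100 in the higher group. Per list these were the 2 largest changes in the direction with more calls and the largest in the other. Others were chosen after their values were seen. Alternatives were the pseudocount, the filter, the scaling, the variance trend, the arrays used, a replicate block and leaving out each array. The number of arrays limits the precision, and no detection calls were used.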

Additional observations from a re-analysis of the deposited data

Results flagged for a closer look

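Among 229 genes and list medians tested within the 4 NdelYDA arrays, 8 had 1 array far from the other 3, and chance flags about 1 in 20. Such an array was seen for STZ (3770.3 in replicate 2, the others 3432.1 to 3472.9), CML41 (370.6 in replicate 3, the others 312.3 to 319.5) and PDF1.2 (394.9 in replicate 1, the others 315.4 to 328.3). For list medians, as the log2 difference from the Ler mean, it was seen for expansins (-0.489 in replicate 1), tubulins and cortical microtubules (-0.467 in replicate 1), mitosis and replication (-0.365 in replicate 3), UDP-glycosyltransferases (0.177 in replicate 1) and calmodulin-like genes (0.17 in replicate 4). In all 8 the NdelYDA arrays kept to one side of the Ler mean. For calmodulin-like genes the groups overlapped, since Ler replicate 3, at 0.15, lay above NdelYDA replicates 1 to 3, at 0.05 to 0.07. The cause was not tested.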

How the results depend on the processing

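Of 189 genes recomputed under 16 alternatives, 182 were called. Of these, 163 kept call and direction in every alternative that tested them, 19 lost the call in at least 1, and 0 reversed. Called totals higher and lower were 2898 and 2544 with median scaling, 2775 and 2826 with quantile normalization, and 3276 and 3488 with the 7 NdelYDA and Ler arrays alone. With pseudocount 64, 693 probe sets were called at a fold of at least 2, against 1045 with 16. The signs of the list medians held in 34 of 40 lists under all 17 settings.

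With the filter above the array median on 3 of 7 arrays, fewer genes were tested. Members called lower were then 1 for the stomatal lineage, 2 for guard cells, 11 for GDSL lipases, 3 for expansins, 1 for GH9 endoglucanases, 3 for root hairs and 6 for mitosis and replication. Members called higher were 1 for starch, 9 for NBS-LRR receptors, 9 for UDP-glycosyltransferases, 4 for CYP71B, 3 for calmodulin-like, 2 for hypoxia and 2 for flavonoid genes. Calls in the other direction were 3 higher for expansins, 1 higher for GH9 endoglucanases and 7 higher for GDSL lipases. They were 1 lower for NBS-LRR receptors, 2 lower for UDP-glycosyltransferases, 3 lower for calmodulin-like and 2 lower for hypoxia genes.

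For plastid-encoded photosynthesis 3 members were called lower with pseudocount 1, no filter, median scaling, quantile normalization or no variance trend, 17 with the 7 arrays alone, and 1 to 6 when leaving out 1 array. For plastid-encoded expression these were 10 with the 7 arrays alone and 2 to 7 when leaving out 1 array. Ribosomal protein genes called higher were 14 without the variance trend and 13 to 17 when leaving out 1 array. Autophagy genes called lower were 2 with median scaling, 3 without the trend and 2 to 5 when leaving out 1 array. TBL genes called lower were 5 to 6 when leaving out 1 array. The causes were not tested.

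Same-numbered NdelYDA and Ler arrays did not deviate together (correlations of -0.02, -0.003 and 0.02). Differently numbered pairs gave -0.07 to 0.08. With 3 same-numbered pairs this check cannot tell whether they shared a batch. With a replicate block, which in effect drops NdelYDA replicate 4, 2201 probe sets were higher and 2337 lower, 5 TBL and 2 autophagy genes were called lower, and of the named genes TUA1 (adjusted p = 0.0517), HAT2 (0.0775), YUC6 (0.135), bHLH115 (0.0832), AT4G30020 (0.0605), ATG8C (0.0976), ATG8D (0.0785) and APG8H (0.0508) missed the threshold.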
